A study of Homo sapiens with 19 samples.

Results

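The mitochondrial ribosomal protein genes were followed in SHEP TET21N cells, a human neuroblastoma cell line that carries a MYCN transgene under the control of doxycycline. They were chosen by symbol, MRPL or MRPS followed by a number and at most a letter from A to C, with a mean of at least 10 counts over the 19 libraries. Of 76 symbols that fit, 75 reached this level, out of 23367 genes in the table. MRPS24 was left out, with 2 counts in 1 library and none in the others. By the known structure of the mitochondrial ribosome (mitoribosome), 25 of the 75 encode proteins of the small subunit and 49 of the large subunit, MRPS30 and MRPS18A among the latter despite their symbols. MRPS36 carries the name but encodes a component of the ketoglutarate dehydrogenase complex. All 75 passed the filter on low counts, with means of 207.4 to 4549 counts per library.

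MYCN-high cells were kept without doxycycline and MYCN-low cells with it, all in RPMI1640 medium with penicillin and FCS. Each state was sampled untreated, after 72 h with doxorubicin at 0.1 µg/ml, and 3, 8 and 14 days after the drug was washed out. Doxorubicin traps topoisomerase II on DNA and leaves breaks. Groups held 2 libraries, labelled biological duplicates B and C, except MYCN-low cells at 14 days with B alone. All groups come from 1 transfected line. The effect of doxycycline itself and that of the transgene cannot be told apart, nor can those of the drug and of time in culture, because each state has 1 untreated group.

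Mitoribosomes translate the few messenger RNAs of the mitochondrial genome, which encode subunits of the respiratory chain and ATP synthase. The ribosomal RNAs come from mitochondrial DNA, while every protein of the particle is encoded in the nucleus, made in the cytosol and imported. Of the 74 members that belong to the particle, 45 are classed here as having a bacterial relative and 29 as found only in mitochondria. MRPS18A and MRPS18B are counted among the 29, although they descend from a bacterial S18 protein. MYC family factors, MYCN among them, are known for raising the expression of genes for ribosomes and mitochondria.

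Gene counts per library ran from 16530112 to 27638012. The MYCN transcript lay between 594.4 and 1416 CPM (counts divided by the TMM-scaled library total, on the usual per-library scale) in the MYCN-high libraries and between 13.5 and 30.7 CPM in the MYCN-low libraries, which fits the labels. MYC, its paralog, was at 0.211 to 1.06 CPM in the former and 8.26 to 16.2 CPM in the latter. Of the markers of mesenchymal neuroblastoma cells, vimentin (VIM) stood at 748 CPM or more in every library. Of the adrenergic markers, TH and DBH did not exceed 0.0975 CPM, while HAND2 lay between 46 and 325.1 CPM. Duplicates of untreated MYCN-low cells stood apart: 28 of the 75 members differed more than 1.5-fold within that pair, while 0 to 9 did so in any other group with duplicates. ERCC spike-in counts ranged from 2730 to 110681 per library, and duplicates differed widely in them. In MYCN-high cells at 72 h, the gene counts per ERCC count were 8637 and 522.3. With libraries scaled to the ERCC sum, no member passed the test in any comparison. Few genes of any kind did, 0 to 70 of all 14793 per comparison. The members' median difference between the states stayed above 0 at all 5 times under that scaling, while the medians of all 8 comparisons with untreated cells changed sign.

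Summed over the 75 genes, the level was higher in every MYCN-high library than in any MYCN-low library. In untreated MYCN-high cells the sum was 6136 CPM ± 241.8 (SD, n = 2), and in untreated MYCN-low cells 3681 CPM ± 427.9 (SD, n = 2). These amounts are 0.578% and 0.373% of all gene counts. In bulk RNA, a change in the number of cells of a kind and a change in RNA per cell cannot be told apart. In MYCN-high cells the sum was 5289 CPM ± 7.07 after 72 h of drug and 4960.3 CPM ± 164.8 at 3 days. It was 5729.3 CPM ± 407.3 at 8 days and 6800.6 CPM ± 384.9 at 14 days (SD, n = 2 each). At 14 days both MYCN-high libraries lay above both untreated ones. In MYCN-low cells the sum was 3336.6 CPM ± 127.3 at 72 h, 3102.4 CPM ± 159.2 at 3 days and 2865.6 CPM ± 171.9 at 8 days (SD, n = 2 each), and 2824.8 CPM at 14 days (n = 1). By group mean with TMM scaling, 48 of the 75 members were highest in MYCN-high cells at 14 days, and 33 were lowest in MYCN-low cells at 14 days and 27 at 8 days. These counts were not set against all genes, and the MYCN-low value at 14 days is that of 1 library. With ERCC scaling the members' median log2 change from untreated to 14 days in MYCN-high cells was -0.88.

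**Figure D1:**
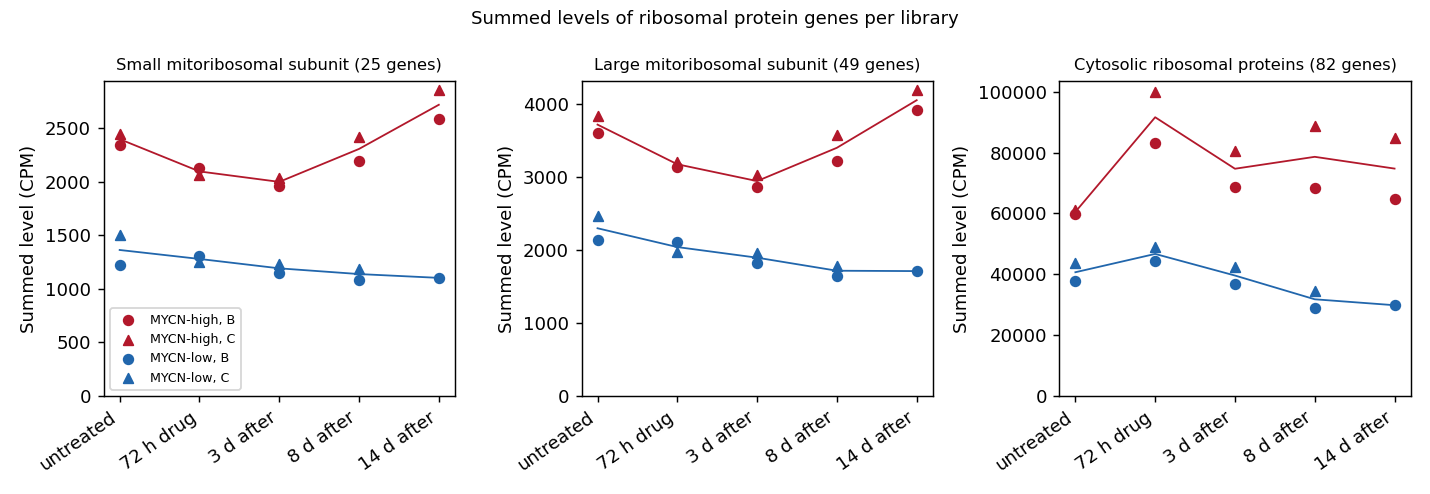
Summed level in CPM (y axis, from 0) at 5 time points (x axis) for the 25 small-subunit genes, the 49 large-subunit genes and 82 cytosolic ribosomal protein genes. Each point is a library, with circles for replicate B and triangles for replicate C, and the lines join group means. All MYCN-high libraries (red) lie above all MYCN-low libraries (blue) in each panel, and both mitoribosomal sums are lowest at 3 days in MYCN-high cells when libraries are scaled by TMM.

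**Figure D2:**
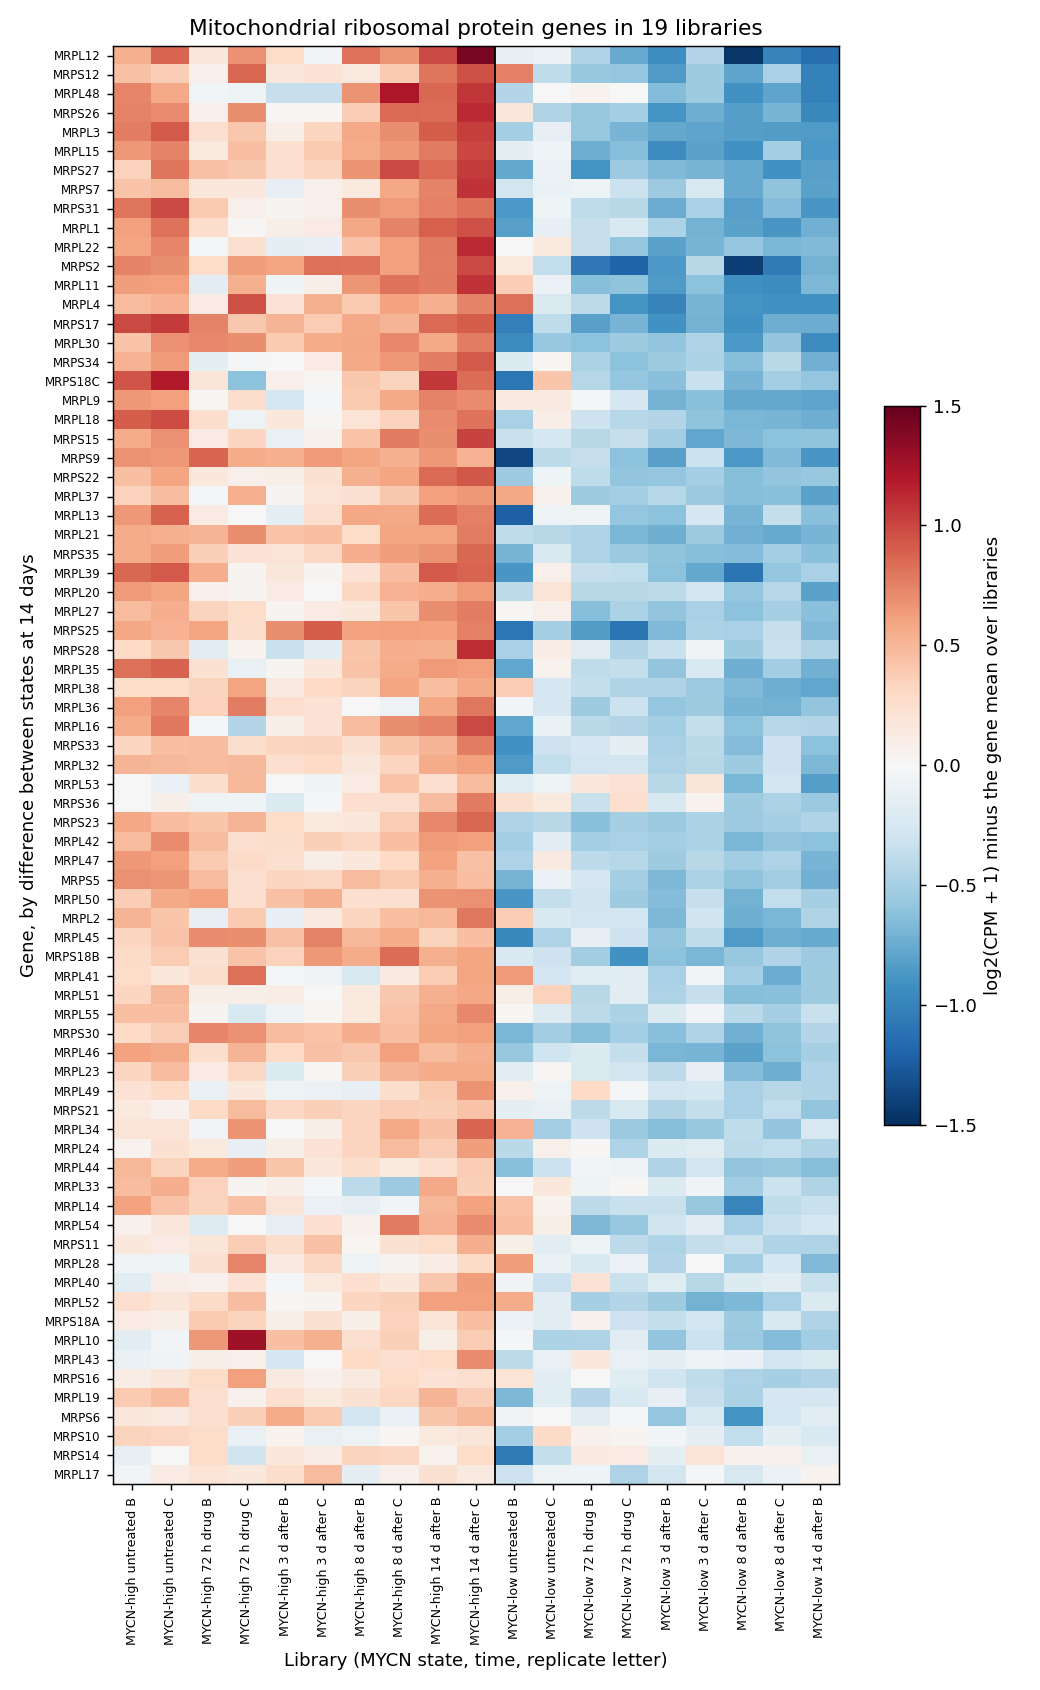
Level of each of the 75 genes (rows, ordered by the difference between the states at 14 days) in the 19 libraries (columns). Colour gives log2(CPM + 1) minus the gene's mean over libraries, red above and blue below it. Most rows are red in MYCN-high and blue in MYCN-low libraries, while MRPS10, MRPS14 and MRPL17 at the foot of the plot differ little or unevenly.

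Per kilobase of exon, the most abundant member in untreated MYCN-high cells was MRPL3, a protein that reaches toward the peptidyl transferase centre, at 188.5 and 210.5 CPM per kb. MRPL24 (150.5 and 169.8 CPM per kb) and MRPL18 (141.4 and 148.5 CPM per kb) came next, and the libraries of these neighbours in the order do not overlap. MRPL18 and MRPL20 (140.7 and 136.5 CPM per kb) did not overlap, but their means differ by less than the duplicates of MRPL18 do. The lowest level was that of MRPS12, a protein of the decoding centre, at 8.75 and 8.31 CPM per kb, a mean 23.4-fold below MRPL3. MRPL55 (8.66 and 8.63 CPM per kb) could not be separated from MRPS12. The median over the 75 genes was 36.9 CPM per kb in untreated MYCN-high cells and 21.1 CPM per kb in untreated MYCN-low cells. MRPL24 led the order in untreated MYCN-low cells, at 109.1 and 152.5 CPM per kb, and MRPL3 came 5th there. The levels of the 75 genes in the 2 states had a Spearman rho of 0.915 across genes, a description of 2 groups that share gene lengths and counting.

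In untreated cells 47 of the 75 genes were higher in MYCN-high than in MYCN-low cells and 0 lower, by edgeR's quasi-likelihood test with a threshold of 0.05 on the Benjamini-Hochberg adjusted p (called here). Of all 14793 genes tested, 16.5% were called higher and 18.6% lower. The median log2 fold change was 0.67 over the 75 genes and -0.04 over all genes. In 59 of the 75, both MYCN-high libraries lay above both MYCN-low libraries, against 30.5% of all genes. Of the small-subunit genes 18 of 25 were higher (median 0.85) and of the large-subunit genes 29 of 49 (median 0.58). All 10 small-subunit proteins classed as found only in mitochondria, MRPS18B included, were higher, among them MRPS25 (1.34 ± 0.20) and MRPS31 (1.34 ± 0.22). Beside each log2 value, ± gives an approximate standard error, taken from the value and its F statistic (absolute value over root F). Of 19 large-subunit proteins classed as found only in mitochondria, 8 were higher.

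The largest difference among members in untreated cells was that of MRPS17, a protein that binds ribosomal RNA in the body of the small subunit. It stood at 119.2 and 124.2 CPM in the MYCN-high libraries and at 28.9 and 45.7 CPM in the MYCN-low libraries. The groups lay far apart, with a log2 fold change of 1.71 ± 0.20 (adjusted p = 3.18e-05). MRPS9, a small-subunit head protein, stood at 121.5 and 119 CPM against 28.7 and 57.4 CPM (log2 fold change 1.48 ± 0.26). The MYCN-low duplicates of MRPS9 differed 2-fold from each other, yet both lay below the MYCN-high libraries. MRPL30 (1.33 ± 0.17) and MRPL13 (1.31 ± 0.30), large-subunit proteins with bacterial relatives, came next among genes of the large subunit. MRPL3 had 339.5 and 379.2 CPM against 139.4 and 182.9 CPM, and a log2 fold change of 1.16 ± 0.16. MRPL45, which lies at the exit of the peptide tunnel and holds the ribosome at the inner membrane, had 73.3 and 79.2 CPM against 29.4 and 42.4 CPM (1.08 ± 0.18). These calls, from MRPS17 to MRPL45, were kept when any 1 of the 4 libraries was left out.

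The 28 genes not called in untreated cells ranged from MRPS28 (0.54 ± 0.24) to MRPL28 (-0.38 ± 0.24). Among them were MRPS12, with 14.2 and 13.5 CPM in MYCN-high libraries and 17.9 and 7.62 CPM in MYCN-low libraries, and MRPL41, with 13.6 and 12.5 CPM against 17.8 and 8.94 CPM. In both the MYCN-low duplicates enclosed the MYCN-high values. MRPL37, a large-subunit protein found only in mitochondria, overlapped in the same way, with 67 and 72.5 CPM against 79.1 and 54.9 CPM. Of the paralogs that descend from a bacterial S18 protein, MRPS18C had 55.4 and 65.9 CPM against 12.9 and 38 CPM (1.25 ± 0.36) and MRPS18B had 78.9 and 84.5 CPM against 55 and 52 CPM (0.61 ± 0.17). MRPS18A was not called, with 32.2 and 31.5 CPM against 27.7 and 26.2 CPM (0.24 ± 0.18). The call of MRPS18C was lost without untreated MYCN-high library C or untreated MYCN-low library B (highest adjusted p = 0.1), and that of MRPS18B without untreated MYCN-high library C (adjusted p = 0.0861). MRPS18C shares exon bases with ABRAXAS1 on the opposite strand in the GENCODE 29 annotation. In all, 24 of the 75 members overlap some other protein-coding gene, 17 on the opposite strand and 7 on the same strand. MRPS17, MRPL12 and MRPL30 are among those on the same strand, and MRPS2 and MRPL37 among those on the opposite strand. The strand setting of the counting is not given in the sources used here, so reads of such pairs cannot be told apart.

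At 72 h of doxorubicin 46 members were called higher in MYCN-high than in MYCN-low cells, against 15.5% of all genes called higher and 14.4% lower. At 3 days 50 were higher, against 17% of all genes higher and 14.8% lower. At 8 days 67 were higher, against 23.4% higher and 20.5% lower, and at 14 days 71 were, against 21.4% higher and 20.5% lower. No member was lower at any of these times. The median log2 fold change between the states was 0.66 at 72 h, 0.66 at 3 days, 1.00 at 8 days and 1.28 at 14 days, with medians of all genes between 0.00 and 0.04. The order from 72 h to 14 days turned round with ERCC scaling, where the medians of the members were 1.30 untreated, then 3.13, 2.46, 1.73 and 0.44. The state groups did not overlap, MYCN-high above, in 65, 66, 72 and all 75 members at these 4 times, against 32.3%, 37.6%, 39.7% and 43.6% of all genes. At 72 h the count was 30 without MYCN-high library C and 29 without MYCN-low library C. At 3 days it was 28 without MYCN-low library B and 38 without MYCN-low library C, and 33 and 31 without MYCN-high library B or C. The count at 14 days rests on 1 MYCN-low library, which the fit assumes to vary like the other groups.

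Mesenchymal markers differed between the states as well. The summed level of the 7 on the list (VIM, FN1, CD44, YAP1, WWTR1, PRRX1 and SNAI2) ran from 1653.3 to 2678.1 CPM in MYCN-high libraries and from 4338.2 to 14280 CPM in MYCN-low libraries. In MYCN-high cells 4 of the 7 were called lower untreated, 3 at 72 h, 3 at 3 days, 6 at 8 days and 5 at 14 days, and none higher. Their median log2 fold changes were -1.37, -0.33, -0.53, -1.29 and -1.64 with TMM scaling, and -0.59, 2.18, 1.31, -0.49 and -2.70 with ERCC scaling, above 0 at 72 h and 3 days. FN1, which encodes fibronectin, differed most in untreated cells (-3.54 ± 0.71), ahead of SNAI2 (-1.90 ± 0.58), CD44 (-1.56 ± 0.23) and VIM (-1.37 ± 0.23). PRRX1 went the other way in untreated cells, with no call (0.51 ± 0.25, means of 206.4 CPM in MYCN-high and 144.8 CPM in MYCN-low cells). At 8 days its means were 327.2 and 278.3 CPM. Of the adrenergic markers, HAND2 was called higher in MYCN-high cells at 8 days (1.79 ± 0.35) and 14 days (2.07 ± 0.47). ISL1 (0.40 ± 0.44) and GATA3 (-0.07 ± 0.44) were not called in untreated cells. GATA3 had a mean of 1.15 CPM in MYCN-high cells at 14 days and 2.14 CPM in the MYCN-low library. The part of these markers in the difference of the members was not tested.

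Over the 5 times, 31 members were called higher in MYCN-high cells every time, 18 at 4 times, 9 at 3, 11 at 2 and 5 at 1. Of all genes tested, 5.87% were called higher every time. The 31 were 15 of the small subunit and 16 of the large subunit, and 15 classed as having a bacterial relative and 16 as found only in mitochondria. The fitted difference was above 0 at all 5 times in 64 members, a count that was not set against all genes. Of the 28 genes not called in untreated cells, 22 were called at 8 days and 25 at 14 days, when 67 and 71 of all 75 members were. The 28 were picked by missing the threshold in untreated cells. MRPS10, a small-subunit head protein, was never called. It stood at 123.2 and 121.4 CPM in untreated MYCN-high cells and at 68.6 and 119 CPM in untreated MYCN-low cells. At 14 days it stood at 108 and 110.5 CPM against 83 CPM, a log2 fold change of 0.40 ± 0.26. Its group means spanned 1.48-fold over the 10 groups, the smallest span of the 75.

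**Figure D3:**
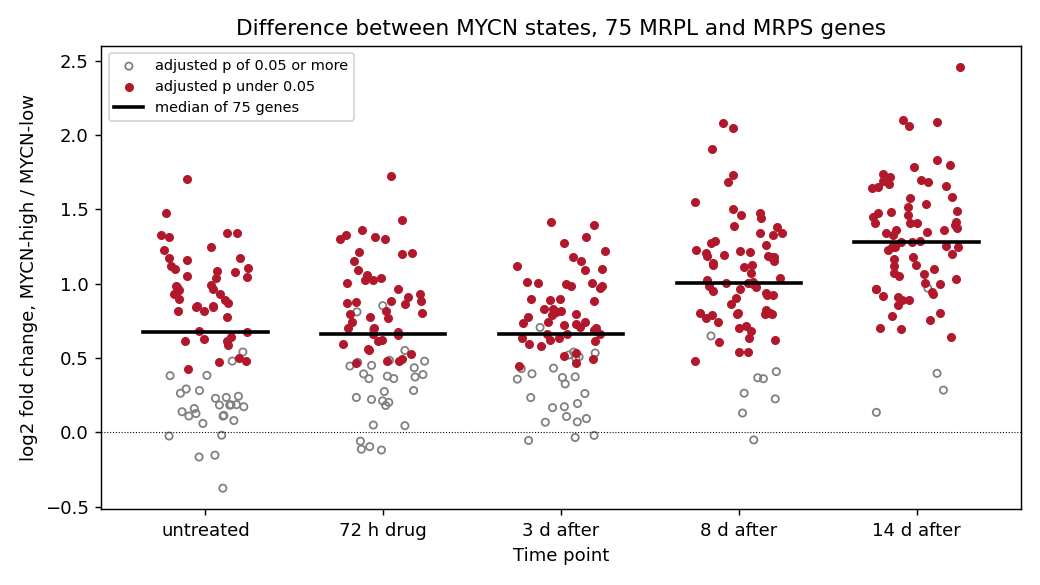
Log2 fold change of MYCN-high over MYCN-low cells (y axis) for the 75 genes at 5 time points (x axis). Filled points passed the threshold of 0.05 on edgeR's adjusted p and open points did not, and black bars are medians, at 0.67, 0.66, 0.66, 1.00 and 1.28. Almost all points lie above 0, and the filled share is largest at 8 and 14 days.

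Promoters of 4 members are printed to set genes that differed between the states (MRPL3 and MRPL45, called at all 5 times, and MRPL12, with the widest range) beside MRPS10, which was not called at any time. The sequences, from RefSeq on GRCh38.p14, are the 250 bases before the annotated start, 5′ to 3′ on the gene's strand. Capitals mark matches on either strand to CACGTG, the E-box bound by MYC family factors, to CCGGAAG, a site of ETS factors such as GABP, or to TGCGCA, the core of sites of NRF1, a regulator of nuclear genes for mitochondria. MRPL3 lies at chr3:131502972-131503221 (minus strand), MRPL12 at chr17:81703117-81703366 (plus strand), MRPL45 at chr17:38296918-38297167 (plus strand) and MRPS10 at chr6:42217862-42218111 (minus strand).
MRPL3: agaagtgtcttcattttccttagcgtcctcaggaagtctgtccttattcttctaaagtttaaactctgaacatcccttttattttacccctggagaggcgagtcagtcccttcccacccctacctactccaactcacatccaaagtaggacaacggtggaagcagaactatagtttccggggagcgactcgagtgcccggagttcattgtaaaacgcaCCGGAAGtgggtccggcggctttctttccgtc
MRPL12: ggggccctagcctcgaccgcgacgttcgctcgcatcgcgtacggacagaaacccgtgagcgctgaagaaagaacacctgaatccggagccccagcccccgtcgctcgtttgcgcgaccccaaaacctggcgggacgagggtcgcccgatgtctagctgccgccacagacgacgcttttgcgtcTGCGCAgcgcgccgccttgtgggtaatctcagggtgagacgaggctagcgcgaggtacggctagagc
MRPL45: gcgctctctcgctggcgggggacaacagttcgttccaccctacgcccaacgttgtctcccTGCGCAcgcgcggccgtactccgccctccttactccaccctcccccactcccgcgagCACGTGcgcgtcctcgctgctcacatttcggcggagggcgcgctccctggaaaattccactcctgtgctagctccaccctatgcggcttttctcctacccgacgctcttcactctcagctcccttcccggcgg
MRPS10: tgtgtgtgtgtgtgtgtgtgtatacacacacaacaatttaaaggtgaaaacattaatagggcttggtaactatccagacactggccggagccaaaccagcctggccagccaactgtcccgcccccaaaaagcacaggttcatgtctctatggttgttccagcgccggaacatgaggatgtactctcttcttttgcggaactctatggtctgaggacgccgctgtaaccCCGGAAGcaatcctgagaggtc

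In these windows MRPL45 holds an E-box and a TGCGCA match, MRPL12 a TGCGCA match, and MRPL3 and MRPS10 a CCGGAAG match each. Of the 75 members 66 were matched by symbol to the RefSeq promoters. CACGTG occurred in 6 of the 66 (9.09%) and in 6.49% of 27305 promoters of the same length. CCGGAAG occurred in 22 (33.3%, against 8.82%) and TGCGCA in 12 (18.2%, against 7.05%). The 27305 promoters were not limited to the genes tested here, so the shares among expressed genes are not known from this comparison. Of the 29 matched members that were called at all 5 times, 3 held CACGTG, 9 CCGGAAG and 8 TGCGCA, and of the other 37 members 3, 13 and 4 did. A match describes letters in this window and is not a measured binding site. MRPL2, MRPL10, MRPL13, MRPL15, MRPL21, MRPL23, MRPL35, MRPS28 and MRPS36 had no entry matched.

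MRPL12, the protein of the flexible stalk that recruits translation factors, had the widest range over the groups, 5.85-fold between MYCN-high cells at 14 days and MYCN-low cells at 8 days. Its levels in MYCN-high cells were 38.1 and 48.3 CPM untreated, 29.1 and 42.5 CPM at 72 h, 31.7 and 25.2 CPM at 3 days, 46.3 and 41.8 CPM at 8 days, and 52.6 and 71.6 CPM at 14 days. In MYCN-low cells they were 23.9 and 24.3 CPM, then 18.6 and 14.9 CPM, 13.2 and 18.9 CPM, 8.79 and 12.4 CPM, and 11.3 CPM at 14 days. The states did not overlap at any time, and lay farthest apart at 8 and 14 days. The log2 fold change between the states was 0.84 ± 0.25 untreated, 2.05 ± 0.26 at 8 days and 2.46 ± 0.35 at 14 days (adjusted p = 0.0167, 1.96e-05 and 6.88e-05). The call in untreated cells was lost without MYCN-high library C or MYCN-low library B (highest adjusted p = 0.153), and those at 8 and 14 days were kept without any 1 library that could be left out.

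Its partners at the base of the stalk, MRPL10 and MRPL11, were not called in untreated cells (0.14 ± 0.22 and 0.48 ± 0.22). MRPL11 then differed by 0.88 ± 0.22 at 72 h, 0.78 ± 0.23 at 3 days, 1.73 ± 0.23 at 8 days and 1.67 ± 0.29 at 14 days. Its calls at 8 and 14 days were kept without any 1 library, while those at 72 h and 3 days were each lost in 2 of 4 such fits (highest adjusted p = 0.17 and 0.132): without MYCN-high library C at either time, and without MYCN-low library B at either time. Of the 5 genes of the stalk region, with MRPL53 and MRPL54, 1 was higher in untreated cells and 5 at 8 and at 14 days, when 67 and 71 of all 75 members were. MRPS12, low in every group, had 18.6 and 20.8 CPM in MYCN-high cells at 14 days, while the MYCN-low library had 4.58 CPM (log2 fold change 2.10 ± 0.46). Its exons overlap those of SARS2 on the opposite strand. MRPS2, a small-subunit protein, had the largest difference at 72 h (1.72 ± 0.24), at 3 days (1.42 ± 0.23) and at 8 days (2.08 ± 0.24). At 8 days it stood at 31.1 and 26.9 CPM in MYCN-high libraries and at 5.84 and 7.79 CPM in MYCN-low libraries.

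After MRPL12 and MRPS12, the largest differences at 14 days were those of MRPL48, a protein of the central protuberance (2.09 ± 0.27), MRPS26 (2.06 ± 0.33), MRPL3 (1.83 ± 0.21) and MRPL15 (1.80 ± 0.23), and all 6 kept their calls without either MYCN-high library. The 6 exit-tunnel genes were called at 8 and at 14 days, as were 4 and 5 of 5 genes of the central protuberance, near the rate of 67 and 71 of 75 over all members. MRPS30, a large-subunit protein found only in mitochondria, differed evenly, by 0.96 ± 0.14 untreated, 1.31 ± 0.14 at 72 h and 1.06 ± 0.18 at 14 days. MRPS6, whose exons overlap those of SLC5A3 on the same strand, was called only at 3 days (0.90 ± 0.20) and 14 days (0.64 ± 0.24). MRPL41 was called at 14 days alone (1.12 ± 0.39), and that call was lost without either MYCN-high library (highest adjusted p = 0.117), as was that of MRPS6 (highest adjusted p = 0.166). MRPS18A was called at 3, 8 and 14 days (0.50 ± 0.18, 0.62 ± 0.18 and 0.80 ± 0.23), and in fits without 1 library these calls were lost in 4 of 4, 2 of 4 and 1 of 2 (highest adjusted p = 0.211, 0.166 and 0.0855). With ERCC scaling the values at 14 days were below 0 for MRPL10 (-0.13), MRPS6 (-0.20) and MRPS18A (-0.10). With TMM scaling 4 members were not called at 14 days, MRPS14 (0.28 ± 0.28), MRPL17 (0.13 ± 0.21), MRPS10 and MRPL34 (0.97 ± 0.40), and none of them lay below 0. Their values with ERCC scaling are not given here.

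**Figure D4:**
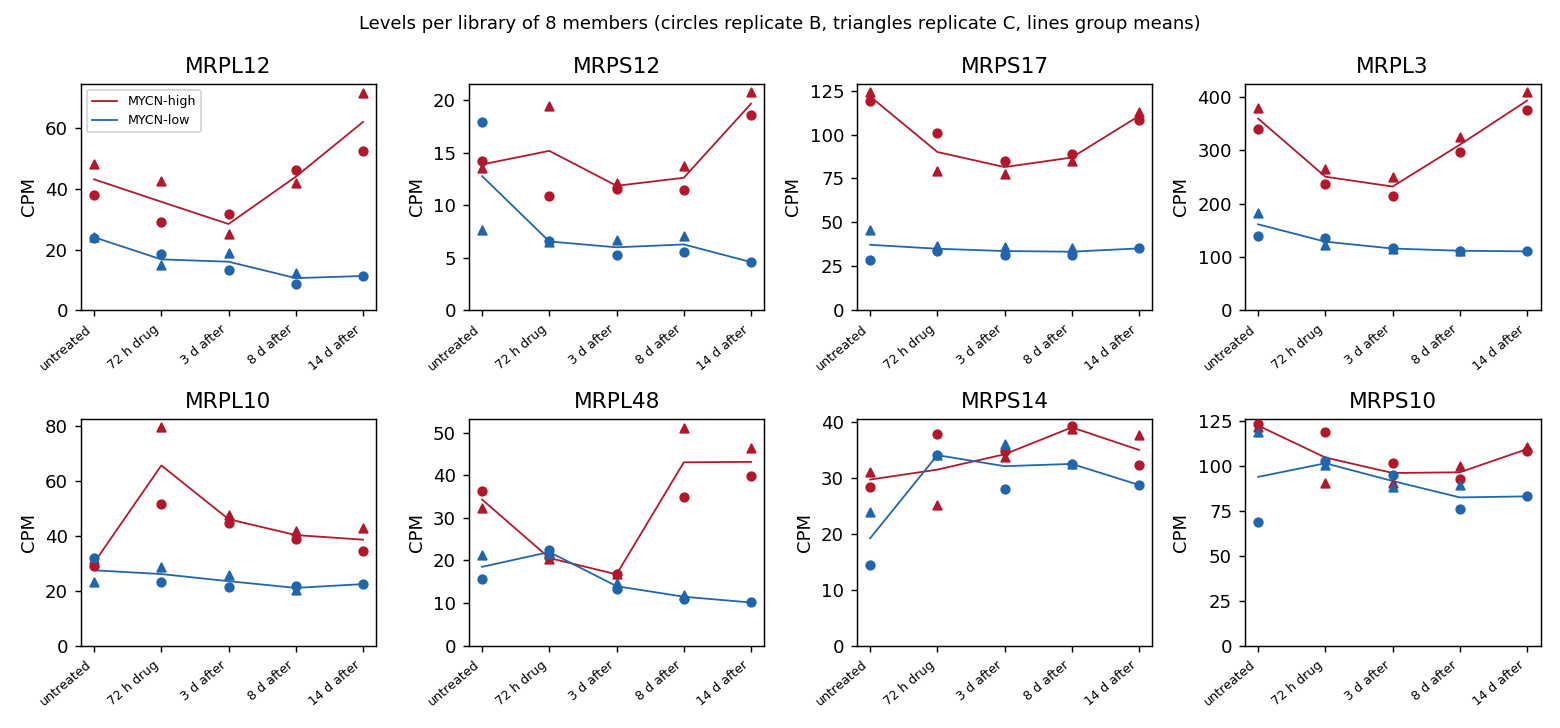
Level in CPM (y axis, from 0) of 8 members at 5 time points (x axis), with circles for replicate B, triangles for replicate C and lines joining group means, MYCN-high in red and MYCN-low in blue. MRPL12, MRPS17 and MRPL3 keep the states apart at every time, MRPL10 has its highest values in MYCN-high cells at 72 h (51.8 and 79.7 CPM), MRPL48 meets between the states at 72 h, and the states overlap or nearly meet in MRPS14 and MRPS10 at most times.

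In MYCN-high cells 72 h of doxorubicin left 2 members higher and 13 lower than in untreated cells, against 18.3% of all genes called higher and 17.9% called lower (36.2% in all). The median log2 fold change of the 75 was -0.20 with TMM scaling and 2.15 with ERCC scaling, under which the median of all genes was 2.37. MRPL10, a ribosomal stalk protein, rose from 29 and 31.6 CPM to 51.8 and 79.7 CPM, a log2 fold change of 1.12 ± 0.22 (adjusted p = 0.000942). Both treated libraries lay above both untreated ones, and the call was kept without any 1 of the 4. MRPS30 was the other gene called higher, by 0.38 ± 0.14, but without any 1 library that call was lost (highest adjusted p = 0.165). Among the 13, with TMM scaling, MRPS18C fell by 1.26 ± 0.36, from 55.4 and 65.9 CPM to 32.4 and 18.1 CPM. MRPL16 fell by 0.91 ± 0.22, MRPL18 by 0.84 ± 0.18, MRPL35 by 0.80 ± 0.22, MRPL48 by 0.74 ± 0.20 and MRPS31 by 0.67 ± 0.22. With ERCC scaling these 6 lay 1.48 to 1.87 above untreated cells, with no call. The count of 15 was 9, 5 and 8 without replicate B or C of untreated cells or replicate C at 72 h, and the calls of MRPL10, MRPL18 and MRPS34 held in every fit without 1 library.

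Over the same step 46 of the 77 tested cytosolic ribosomal protein genes were called higher and 2 lower (median 0.58, and 2.87 with ERCC scaling). The medians of the lists thus lay on different sides of 0 with TMM scaling and on the same side with ERCC scaling, and the difference between the lists was not tested. MKI67, a proliferation marker, stood at 783.9 and 590.8 CPM in untreated MYCN-high cells and at 14.4 and 74.7 CPM at 72 h. All 18 genes of a list for G2 and mitosis were called lower at 72 h (median -3.83, and -2.55 with ERCC scaling). The part of this change in the result for the 13 members was not tested.

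At 3 days MRPL10 was the only member called higher in MYCN-high cells (0.61 ± 0.22) and 19 were called lower, against 15.1% of all genes called higher and 15.7% lower (30.8% in all). The median was -0.31 with TMM scaling and 1.32 with ERCC scaling. MRPS18C (-1.05 ± 0.35), MRPL48 (-1.03 ± 0.20), MRPL18 (-0.86 ± 0.18), MRPS31 (-0.86 ± 0.22), MRPL22 (-0.83 ± 0.18) and MRPL39 (-0.79 ± 0.26) changed most with TMM scaling, and with ERCC scaling all 6 lay above 0. MRPL48 stood at 16.7 CPM in both libraries, against 36.3 and 32.2 CPM untreated. MRPL3 fell with TMM scaling at 72 h (-0.52 ± 0.16) and at 3 days (-0.63 ± 0.16), from its untreated 339.5 and 379.2 CPM to 213.5 and 250.3 CPM at 3 days. Of the genes called lower, 11 were shared by 72 h and 3 days, against 13.4% of all genes, in 2 comparisons with the same untreated libraries. The count of 20 was 8, 4, 5 and 9 without replicate B or C of untreated cells, or B or C at 3 days, and the calls of MRPL10, MRPS18C and MRPL39 were lost in each of these 4 fits (highest adjusted p = 0.182, 0.152 and 0.149).

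At 8 days 3 members were lower than in untreated MYCN-high cells, MRPL33 (-0.99 ± 0.16), MRPL36 (-0.73 ± 0.18) and MRPL18 (-0.67 ± 0.18), against 4.09% of all genes (4.49% were higher, 8.58% in all), and all 3 lay above 0 with ERCC scaling. The median over the 75 genes was -0.08 with TMM scaling and 1.02 with ERCC scaling. MRPL33 kept its call without any 1 library, so the count was 1 in each such fit. MRPL48 stood at 34.9 and 51.1 CPM by then. At 14 days no member was called in either direction by edgeR, as was true of all 14793 genes, and DESeq2's Wald test called 0 members too. At an unadjusted p under 0.05, 8 members were higher and none lower, 8 of 75 in all, near the 8.42% of all genes that passed in either direction. The median was 0.21 with TMM scaling and -0.88 with ERCC scaling. In 51 of the 75 both libraries at 14 days lay above both untreated ones, against 21.9% of all genes. MKI67 stood at 643 and 385.1 CPM at 14 days.

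In MYCN-low cells 12 members were lower at 72 h than untreated, 15 at 3 days, 27 at 8 days and 15 at 14 days, with 12.1%, 12.7%, 14.6% and 10.7% of all genes called lower. The medians were -0.17, -0.27, -0.41 and -0.42 with TMM scaling, and 0.31, 0.15, 0.60 and 0.03 with ERCC scaling. The untreated libraries of this comparison are the pair that stood apart. The counts called in either direction were 13, 16, 28 and 15 (22.3%, 23.2%, 24.9% and 18.4% of all genes), and 25, 25, 29 and 18 without untreated MYCN-low library C. They were 4 and 5 without replicate B or C at 72 h, 6 and 7 at 3 days, and 6 and 11 at 8 days. Of the 27 lower at 8 days, 22 were of the large subunit and 4 of the small subunit, with MRPS36 besides. The 8 genes lower at all 4 times were MRPL4, MRPL11, MRPL15, MRPL22, MRPL27, MRPL37, MRPL51 and MRPS34, against 6.93% of all genes, in comparisons that share untreated libraries.

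MRPL37 stood at 79.1 and 54.9 CPM in untreated MYCN-low cells. It had 35.8 and 36.7 CPM at 72 h, 38.7 and 35.5 CPM at 3 days, 33.2 and 33.6 CPM at 8 days and 29.7 CPM at 14 days. All treated libraries lay below both untreated ones, with TMM-scaled log2 fold changes of -0.88 ± 0.20 at 72 h and -1.17 ± 0.25 at 14 days, and only its call at 3 days was lost in fits without 1 library (without replicate B untreated or C at 3 days, highest adjusted p = 0.0615). MRPS2 fell, with TMM scaling, from 19.2 and 13.2 CPM to 7.69 and 6.95 CPM at 72 h (-1.14 ± 0.24) and to 5.84 and 7.79 CPM at 8 days (-1.24 ± 0.24). These calls were kept without any 1 library. MRPL4, a large-subunit protein, had 29.1 and 13.6 CPM untreated and 8.2 and 8.07 CPM at 8 days (-1.39 ± 0.33), a call lost without replicate B untreated or either library at 8 days (highest adjusted p = 0.119). MRPS12 had 17.9 and 7.62 CPM untreated and 4.58 CPM at 14 days (-1.47 ± 0.45). The untreated duplicates of both genes differ by more than 2-fold, and without replicate B of untreated cells neither was called at 14 days (highest adjusted p = 0.201 for each). MRPL12 was lower by 1.18 ± 0.26 at 8 days and 1.09 ± 0.33 at 14 days on the log2 scale, calls lost without replicate B at 8 days (adjusted p = 0.063) and without replicate B of untreated cells (adjusted p = 0.0547).

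MRPS14, a small-subunit protein, was the 1 member called higher in MYCN-low cells, at 72 h (0.82 ± 0.23), 3 days (0.74 ± 0.23) and 8 days (0.76 ± 0.23), against 10.2%, 10.5% and 10.2% of all genes called higher. At 14 days 0 members and 7.63% of all genes were. It stood at 14.4 and 24 CPM untreated and at 34.1 CPM in both libraries at 72 h. Without untreated MYCN-low library B none of these 3 calls was kept, and without either library of the later time those at 72 h and 8 days were lost, as was that at 3 days without replicate C (highest adjusted p = 0.149, 0.233 and 0.201). MKI67 stood at 852.8 and 741.8 CPM in untreated MYCN-low cells, 2.58 and 3.33 CPM at 72 h, and 98.1 CPM at 14 days. The 18 genes for G2 and mitosis were all called lower at each of the 4 times, and their medians stayed below 0 with ERCC scaling. Their part in the lower mitoribosomal levels was not tested. In untreated cells 1 of those 18 genes was called between the states, CCNB1 (0.92 ± 0.27). With 2 libraries per group, a gene without a call may still differ. At 8 days the 18 genes summed to 5245.6 and 4704.7 CPM in MYCN-high libraries and to 605.8 and 956.9 CPM in MYCN-low libraries. At 14 days the sums were 6969.7 and 5916.6 CPM against 802 CPM in the MYCN-low library. The part of these genes in the difference between the states was not tested.

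The responses of the states were then compared directly, as the MYCN-high change minus the MYCN-low change. At 72 h, 1 member was called above 0 and 1 below, against 6.63% and 4.06% of all genes (10.7% in all). These were MRPL10 (1.19 ± 0.31) and MRPL48 (-0.98 ± 0.28). At 3 days no member was called by edgeR or by DESeq2's Wald test, while edgeR called 5.1% of all genes above 0 and 2.48% below (7.58% in all). At an unadjusted p under 0.05 there were 10 of the 75 members, against 24.5% of all genes. At 8 days 6 members were above 0, where 4.41% of all genes were above and 1.94% below (6.35% in all): MRPL11 (1.25 ± 0.31), MRPS2 (1.23 ± 0.33), MRPL38 (1.03 ± 0.28), MRPL48 (1.02 ± 0.28), MRPL9 (0.76 ± 0.20) and MRPL51 (0.74 ± 0.21). At 14 days 14 members were above 0 and none below, where 4.87% of all genes were above and 2.53% below (7.41% in all). The median difference was -0.02 at 72 h and -0.01 at 3 days, and 0.33 at 8 days and 0.58 at 14 days with TMM scaling. It was 1.85 and 1.14 at 72 h and 3 days with ERCC scaling, and 0.40 and -0.94 at 8 and 14 days.

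The 14 genes at 14 days were led by MRPS12 (1.97 ± 0.56), MRPL12 (1.62 ± 0.41), MRPS36 (1.40 ± 0.34), MRPL37 (1.40 ± 0.32), MRPL48 (1.20 ± 0.33) and MRPL38 (1.17 ± 0.33). The others were MRPS7, MRPL22, MRPL9, MRPL15, MRPL27, MRPL51, MRPS34 and MRPS21. MRPS36, the gene outside the mitoribosome, had 16.6 and 17.7 CPM in untreated MYCN-high cells and 23.1 and 29 CPM at 14 days, against 19.7 and 18.4 CPM and 10.9 CPM in MYCN-low cells. Of the 14, 6 had not been called between the states in untreated cells, and 4 were also called at 8 days. These counts rest on few libraries. At 14 days the count was 0 and 2 without untreated MYCN-high library B or C, 6 and 1 without MYCN-high library B or C at 14 days, and 22 without untreated MYCN-low library C. At 8 days it was 0 without untreated MYCN-high library B or C, without MYCN-low library B at 8 days or without MYCN-high library C at 8 days. It was 3 and 1 without replicate B of MYCN-high or C of MYCN-low cells at 8 days. Without untreated MYCN-low library C it was 18 at 8 days, 27 at 72 h and 25 at 3 days. At 72 h it was 6 without MYCN-high library B at 72 h, 1 without MYCN-low library C at 72 h, and 0 without any 1 of the other libraries.

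**Figure D5:**
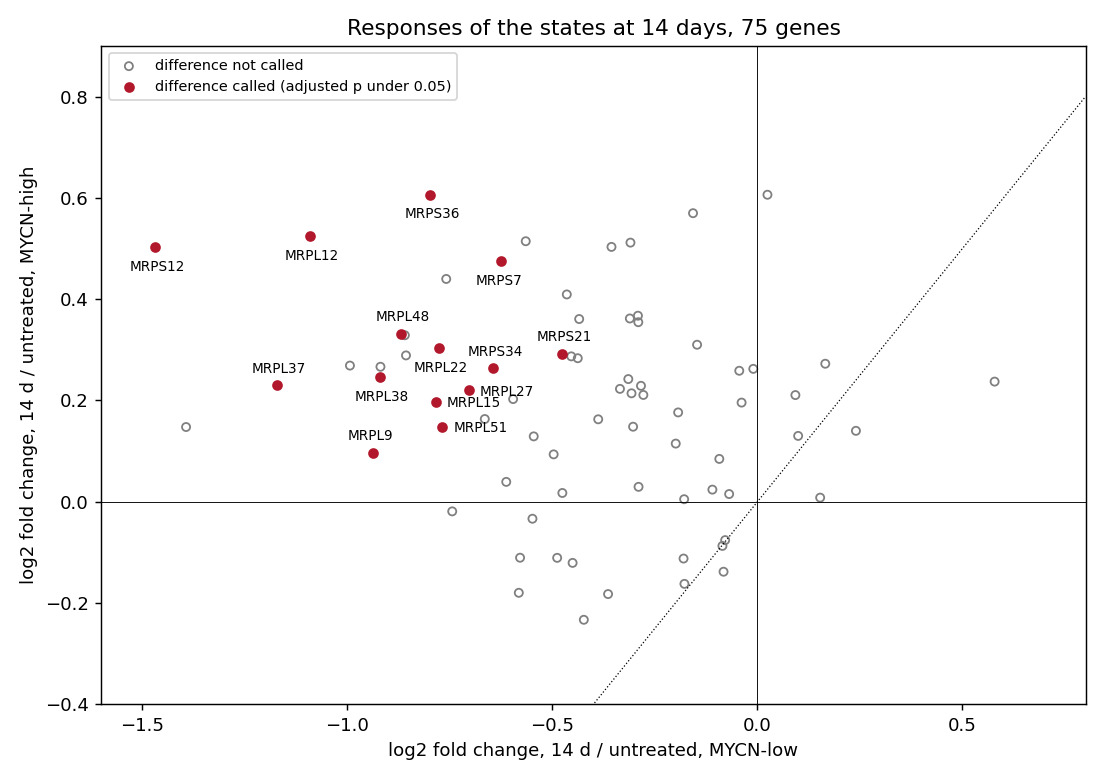
Log2 fold change from untreated cells to 14 days in MYCN-high cells (y axis) against that in MYCN-low cells (x axis) for the 75 genes, with TMM scaling. Filled, named points are the 14 genes whose responses differed past the threshold, the dotted line marks equal responses, and the medians are 0.21 on the y axis and -0.42 on the x axis (-0.88 and 0.03 with ERCC scaling). All 14 lie above the line, in the area with values above 0 in MYCN-high and below 0 in MYCN-low cells.

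Cytosolic ribosomal protein genes followed the states as well, with 32 of 77 called higher in MYCN-high cells untreated, 69 at 72 h, 67 at 3 days and 75 at both later times, when 1 was lower. Their medians were 0.50, 1.04, 0.96, 1.33 and 1.32 (0.42 to 3.43 with ERCC scaling). In MYCN-low cells at 8 days 26 of them were lower and 1 higher than untreated (median -0.40). The median of the 75 members was -0.41 there. Both medians lay above 0 with ERCC scaling, at 0.56 and 0.60.

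Other genes of mitochondrial gene expression were taken from lists of known members. Of 7 mitoribosomal proteins with other symbols, 2 were higher in untreated MYCN-high cells, ICT1 (0.92 ± 0.20), which rescues stalled ribosomes, and PTCD3 (0.90 ± 0.23), and 6 were higher at 14 days. Of 25 genes for mitoribosome assembly and ribosomal RNA modification, 17 were higher and 1 lower in untreated cells, and 19 were higher at 14 days. Those with the smallest p in untreated cells were RNMTL1 (1.62 ± 0.19), a methyltransferase of the large ribosomal RNA, TRUB2 (1.31 ± 0.17) and RPUSD4 (1.26 ± 0.17), which belong to the pseudouridine synthases, and MTERFD1 (1.53 ± 0.22). Of 15 translation factors and activators 11 were higher untreated and 12 at 14 days, among them SLIRP (1.25 ± 0.17 untreated) and LRPPRC (1.46 ± 0.22), partners that stabilise mitochondrial messenger RNAs, and the initiation factor MTIF2 (1.20 ± 0.18).

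Of 20 genes for mitochondrial DNA maintenance, transcription and RNA processing 17 were higher untreated and 18 at 14 days. C10orf2, which encodes the mitochondrial DNA helicase Twinkle, differed by 2.32 ± 0.18. TFAM, which packages mitochondrial DNA and starts its transcription, had 167.5 and 189.4 CPM against 36.1 and 65.3 CPM in untreated cells (1.81 ± 0.21). It was lower in MYCN-high cells at 72 h by 1.38 ± 0.21 on the log2 scale with TMM scaling, and 1.02 above untreated with ERCC scaling. Of 10 regulators of mitochondrial biogenesis 2 were higher in untreated MYCN-high cells, PPARGC1B (2.64 ± 0.37; 18.2 and 22.7 CPM against 1.7 and 4.75 CPM) and PPRC1 (0.87 ± 0.18), both coactivators. At 14 days 5 of the 10 were higher.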

How the data were processed

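RNA sequencing counts of 19 libraries were analysed. The deposited table holds raw read counts per gene symbol. The submitters' processing notes list STAR 2.4.0h1, HTSeq and hg19; annotation, strand setting and filters are not given in the sources used here. Per the labels' protocols, ERCC mix was added and ribosomal RNA removed (RiboGold) before ScriptSeq libraries were made, while the molecule label says polyA RNA. The 92 ERCC lines were set aside. Of 23367 genes, 14793 passed filterByExpr and were fitted in edgeR 4.0.16 (R 4.3.3) with TMM scaling, 1 coefficient per group (10 groups, 9 residual degrees of freedom, biological coefficient of variation 0.204) and quasi-likelihood tests in 17 comparisons, adjusted by Benjamini-Hochberg over all genes of a comparison at 0.05. Levels per kilobase used exons of protein-coding transcripts in GENCODE 29. The self-test was run on simulated counts. Alternatives were DESeq2 1.42.0 (size factors, Wald test), no filter on low counts, scaling to ERCC sums, a block for the replicate letter, and fits without 1 library. Figures used Python 3.11.15 and matplotlib 3.10.9.

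Members, lists and tests were chosen with earlier results of these data known. Named were 12 members listed by role (MRPL12, MRPL11, MRPL10, MRPS12, MRPL3, MRPL45, MRPL41, MRPS30, MRPS6, MRPS18A, MRPS18B and MRPS18C) where described, then up to 6 called members per direction by size of change whose groups did not overlap (not required for differences between responses), and up to 4 genes of each related list by smallest p. The counts held no replicate C of MYCN-low cells at 14 days, and all 19 libraries were used. MRPS10, MRPS14, MRPL17, MRPL34 and other genes outside this rule were chosen after their values were seen.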

Additional observations from a re-analysis of the deposited data

Results flagged for a closer look

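These results were marked because the responses of the states to drug and washout differed by a test of the difference itself, in edgeR's quasi-likelihood fit with Benjamini-Hochberg adjustment. At 72 h 2 members differed, MRPL10 (log2 difference 1.192) and MRPL48 (-0.983), against 10.7% of all genes, so the count of members is below that background. At 8 days 6 of 75 differed, against 6.35% of all genes: MRPL11 (1.255), MRPS2 (1.23), MRPL38 (1.034), MRPL48 (1.016), MRPL9 (0.76) and MRPL51 (0.741). At 14 days 14 of 75 differed, against 7.41% of all genes, with MRPS12 (1.972), MRPL12 (1.616), MRPS36 (1.404), MRPL37 (1.403), MRPL48 (1.201) and MRPL38 (1.167) the largest. MRPL48 is the 1 named member marked at all 3 times, below 0 at 72 h and above 0 later with TMM scaling, but at 0.949 at 72 h and -0.311 at 14 days with ERCC scaling. None of these calls was kept in every fit that left out 1 library.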

How the results depend on the processing

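Limits lie in the 2 libraries per group, in the single MYCN-low library at 14 days, which could not be left out of the comparisons that need it, and in ERCC counts that differed widely between duplicates. With ERCC scaling 0 members were called in every comparison, and 0 to 70 of all 14793 genes, so the lack of calls is not particular to the members. The all-gene medians of the state comparisons moved to 0.62, 2.51, 1.82, 0.80 and -0.83. A change of scaling shifts all genes of a comparison by nearly the same amount. The members minus all genes thus stayed close to the TMM value by construction, for example 0.68 against 0.72 in untreated cells. This closeness is not a test of either scaling. With ERCC scaling these log2 values changed sign. Between the states at 14 days they were -0.127 for MRPL10, -0.201 for MRPS6 and -0.099 for MRPS18A. In MYCN-high cells at 72 h they were 1.811 for MRPL3, 1.48 for MRPS18C, 1.696 for MRPL16, 1.687 for MRPL18, 1.73 for MRPL35, 1.61 for MRPL48 and 1.872 for MRPS31. At 3 days they were 0.93 for MRPL11, 0.933 for MRPL3, 0.628 for MRPS18C, 0.533 for MRPL48, 0.81 for MRPL18, 0.778 for MRPS31, 0.809 for MRPL22 and 0.869 for MRPL39. At 8 days they were 0.192 for MRPL33, 0.437 for MRPL36 and 0.434 for MRPL18. In MYCN-low cells at 8 days they were 0.017 for MRPL11, 0.311 for MRPS12, 0.418 for MRPL3, 0.327 for MRPL41 and 0.165 for MRPL37. The differences between responses were 0.949 for MRPL48 at 72 h, and -0.206 for MRPS36, -0.221 for MRPL37, -0.311 for MRPL48 and -0.539 for MRPL38 at 14 days. DESeq2's Wald test called 32 members in MYCN-high cells at 3 days and 5 at 8 days, and 5 in the difference at 72 h. With no filter 5 were called in MYCN-high cells at 8 days, and 8 and 2 in the differences at 72 h and 3 days. With DESeq2's size factors 1 was called in the difference at 8 days. The shares of all genes called in these alternative fits are not given here, so the counts cannot be read as particular to the members. The cause was not tested in any of these cases.

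Leaving out 1 library at a time gave 33 to 48 called members between the states untreated, 29 to 44 at 72 h, 28 to 38 at 3 days, 50 to 64 at 8 days and 60 to 65 at 14 days, and 32, 25, 25, 49 and 58 members were called in every such fit. In MYCN-high cells it gave 5 to 11 at 72 h, 4 to 9 at 3 days, 1 at 8 days and 0 at 14 days, and in MYCN-low cells 4 to 25, 6 to 25, 6 to 29 and 16 to 18. The differences between responses ranged from 0 to 27, 0 to 25, 0 to 18 and 0 to 22. The counts of members in fits without 1 library, here and above, are not set against all genes called in the same fits. Libraries share only a letter, B or C. Over 36 pairs of groups the correlation of the B minus C differences ran from -0.208 to 0.315. The median correlation was 0.108, and 22 were over 0.1. More members were lower in B than in C in every group with duplicates except MYCN-low cells at 72 h (31 against 44). These values do not settle whether the letter pairs the libraries. With the replicate letter as a block, 47, 48, 50, 67 and 70 members were called between the states, 16, 22, 3 and 0 in MYCN-high cells, 14, 16, 31 and 14 in MYCN-low cells, and 3, 0, 9 and 14 in the differences. The counts with the block are likewise given without the share of all genes. Of the 10 members most abundant per kilobase, 5 were also among the 10 highest without division by length.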
